A study of Mus musculus with 24 samples.

Results

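C2C12 is a mouse myoblast cell line derived from adult muscle, and its cells stop dividing and join into long myotubes with many nuclei once growth signals are withdrawn. The comparison described here set C2C12 cells kept for 2 days in differentiating medium (day 2, 3 arrays) against C2C12 cells that were still proliferating 1 day before that medium was added (day -1, 3 arrays). The 6 arrays were all those labelled with these days among the 24 arrays of a time course that ran between day -2 and day 10. The 3 arrays of confluent cells on day 0 were not used, so that the last proliferating day was set directly against early differentiation. All 12422 probe sets of the array other than its 66 controls were members, and 8402 passed the filter on dim signals. All groups were the same unmodified line, the labels did not give the composition of the media or the number of separate cultures, and the p-values therefore measure only the spread between these samples.

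Total RNA was hybridised to MG_U74Av2 oligonucleotide arrays, in which each probe set reports 1 signal for a transcript. Values below are log2 of the deposited signal, with signals under 77.5 raised to that floor (6.28 on the log2 scale). A change is the day 2 mean minus the day -1 mean on this scale, so a change of 1 is a doubling. Changes were tested with limma, adjusted by the Benjamini-Hochberg method over the 8402 probe sets, and called at an adjusted p under 0.05. Where 2 or 3 arrays of the lower day were at the floor, the change is given as "at least". Raising arrays to the floor removes their spread, so the p-value of such a probe set does not measure that spread in full. Total RNA of a whole culture cannot tell fewer cells of a kind from less RNA per cell, so a fall in a proliferation gene covers both.

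In proliferating myoblasts, the muscle regulatory factors MyoD and Myf5 are held back by Id proteins, which bind their E-protein partners, and by the cyclin-dependent kinases of the dividing cell. On differentiation, myogenin and the MEF2 factors are induced, cyclin-dependent kinase inhibitors and the retinoblastoma protein stop the cycle, and genes of the sarcomere, of the calcium-handling membranes and of the neuromuscular junction follow. The comparison of day 2 with day -1 asks which of these steps had been taken, and what the cells still shared with the dividing culture.

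Of the 8402 tested probe sets 2182 were called (26%), with 1011 higher (12%) and 1171 lower (13.9%) on day 2. The rises were steeper. A change of at least 4-fold was called upward for 147 probe sets and downward for 41, and a change of at least 16-fold for 44 and 3. For 75 called probe sets the size is only a lower bound, 66 upward and 9 downward. The 3 arrays of day 2 and the 3 arrays of day -1 did not overlap for 3564 probe sets (42.4%), which included 2137 of the called ones. For 2169 probe sets (25.8%) the 95% confidence interval of the change lay inside 1.5-fold in either direction, so that a larger difference was outside the interval. The other 4152 were neither called nor bounded in this way. The median change of all tested probe sets was -0.02.

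**Figure D1:**
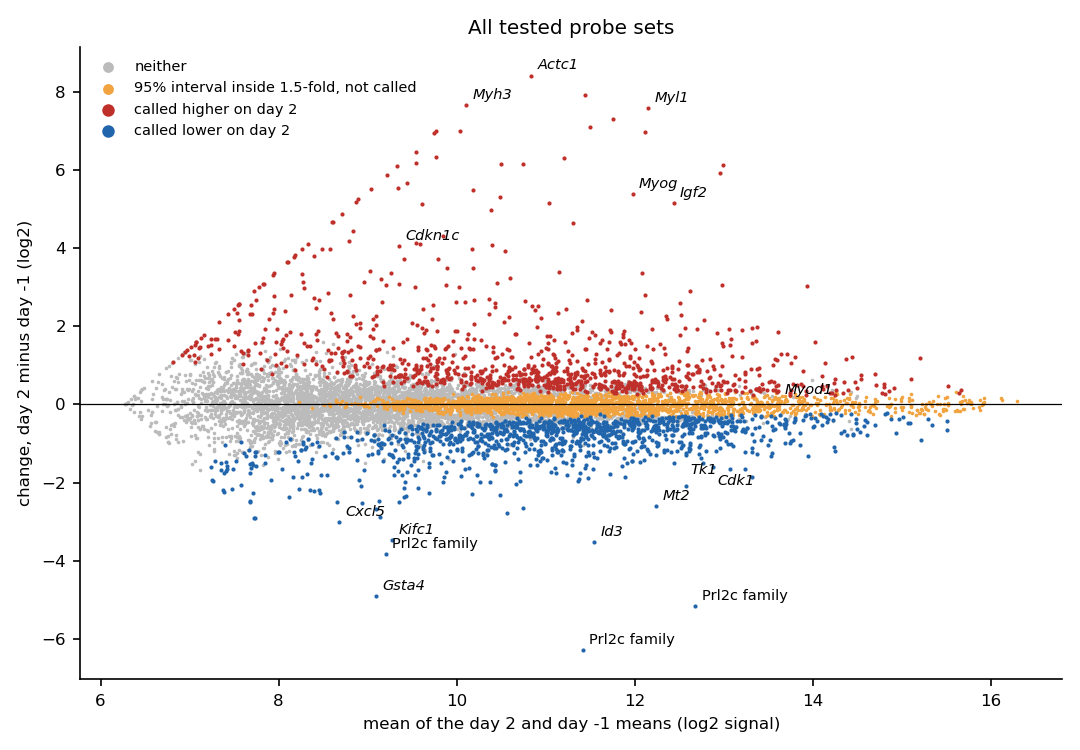
Change between day 2 and day -1 (log2, vertical axis) against the mean of both days (log2 signal, horizontal axis) for the 8402 tested probe sets, 1 point each. Red points are the 1011 called higher on day 2 and blue points the 1171 called lower, orange points have the 95% interval inside 1.5-fold without a call, and the straight upper left edge holds probe sets at the floor on day -1.

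The arrays of day 2 and day -1 had similar control ratios. The 3' to 5' ratio of the Gapdh control was 0.797 to 0.859 on day 2 and 0.82 to 0.862 on day -1. Their means without the lowest and highest 2% of signals lay between 1500.89 and 1500.97. The deposited signals had been scaled to a common mean of this kind, so these means cannot show whether the arrays were alike in quality. Correlations over all tested probe sets were 0.966 to 0.974 within a day and 0.888 to 0.899 between the days. The arrays came from 2 chip lots, both of which held both days. Of 1081 probe sets that differed over 2-fold in the first lot, 88.3% differed in the same direction in the other, and of 1179 in the other lot 87% did so in the first. The 5 scan days each held arrays of 1 of the 2 days only. With scan day as a fixed factor, read through the other days of the series, 609 probe sets were called, and 2124 were called when scan day was instead treated as random. The fixed factor leaves the day -1 value on replicate 3 alone.

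The myogenic regulators did not move as 1 group. Among 21 tested myogenic transcription factors and cofactors 7 rose and 2 fell (7 and 1 with scan day as a fixed factor), where 12.8% of the 6237 tested genes rose and 15.4% fell (28.2% called in all, with 1 probe set a gene). Myogenin (Myog, probe set 103053_at), the factor that commits myoblasts to fusion, had values of 14.58, 14.73 and 14.71 on day 2, against 9.16, 9.62 and 9.08 on day -1. The groups were far apart, and the change was 5.39 ± 0.19 (SE, n = 3 arrays a day, limma adjusted p = 2.06e-15), or 41.9-fold. Myod1, which lies upstream of myogenin, had 13.55, 13.73 and 13.73 on day 2, against 13.54, 13.56 and 13.58 on day -1. These arrays overlapped, and the interval of the Myod1 change, -0.10 to 0.32, lay inside 1.5-fold. Myf5, the other early factor, fell to 8.84, 8.88 and 8.14 on day 2, against 9.22, 9.67 and 10.07 on day -1 (change -1.04 ± 0.27, limma adjusted p = 0.0062). Thus both days carried a like and high Myod1 signal, while myogenin differed.

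Mef2c, a MADS-box partner of the myogenic factors, had 12.30, 12.28 and 11.96 on day 2, against 7.07, 7.81 and 6.28 on day -1. Its change was 5.13 ± 0.43 (limma adjusted p = 5.74e-09), and the other 3 Mef2c probe sets rose by 4.43, 5.24 and 4.66. Mef2a was already well above the floor in dividing cells and rose less, to 12.65, 12.52 and 12.67 on day 2, against 11.08, 10.98 and 11.17 on day -1 (1.54 ± 0.11, limma adjusted p = 5.79e-10). Mef2d rose by 1.62, and Tead4, which binds the muscle CAT motif, by 1.21 to 1.83 over 4 probe sets. The methyltransferase Smyd1, needed for myofibril assembly, was at the floor on all 3 day -1 arrays and at 12.28, 12.55 and 12.32 on day 2 (at least 6.11, limma adjusted p = 6.03e-18), although a second Smyd1 probe set changed by 0.55 and was not called. The LIM protein Csrp3 was likewise at the floor on day -1 and at 11.45, 11.31 and 11.63 on day 2. Nfatc1, a calcium-dependent factor, fell by 1.19.

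Among 16 antagonists of the myogenic factors 4 fell and 4 rose, where 15.4% of all tested genes fell and 12.8% rose. The Id genes encode the proteins that sequester E-proteins, and all 3 tested fell. Id3 had 9.96, 9.75 and 9.65 on day 2, against 13.32, 13.26 and 13.33 on day -1, a fall of 11.5-fold (change -3.52 ± 0.16, limma adjusted p = 1.9e-13). Id1 had 10.66, 10.57 and 10.65 on day 2, against 12.42, 12.30 and 12.06 on day -1, and Id2 had 12.32, 12.28 and 12.05 on day 2, against 13.22, 13.25 and 13.28 on day -1. No Id gene had overlapping arrays. Id2 was still bright on day 2, with a change of -1.03 ± 0.17, and was lower again on day 4 (11.45 on average, day 4 minus day 2 -0.76, limma adjusted p = 0.00364). The fourth gene that fell was Snai2 (-0.99), a repressor that competes for E-boxes. Of the Notch genes, the ligand Dll1 was at or near the floor on day -1 (6.28, 6.31 and 6.28) and at 10.02, 9.88 and 10.25 on day 2, so that its change was at least 3.76. The receptor Notch1 rose by 0.57, and the targets Hes1 and Hey1 had changes of -0.09 and -0.06 and were not called. Bhlhe40, also on the list of antagonists, had 12.8, 12.78 and 12.88 on day 2, against 10.91, 10.71 and 11.18 on day -1. Its rise was 1.89 ± 0.16 (limma adjusted p = 6.23e-09).

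The promoter window of Myog is shown because Myog had one of the largest rises among the regulators. It is 300 bases long, mostly upstream of the gene start, from the RefSeq annotation of GRCm38.p6, chr1:134289754-134290053 on the plus strand, and its capitals mark the E-box letters CANNTG, the sites that myogenic bHLH factors bind.
Myog: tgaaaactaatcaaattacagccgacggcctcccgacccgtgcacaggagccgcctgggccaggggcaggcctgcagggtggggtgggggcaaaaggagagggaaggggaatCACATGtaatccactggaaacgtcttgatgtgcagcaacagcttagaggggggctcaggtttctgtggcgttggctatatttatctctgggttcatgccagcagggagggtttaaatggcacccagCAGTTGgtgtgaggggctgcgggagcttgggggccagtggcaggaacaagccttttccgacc
Both strands were read, and CANNTG is its own reverse complement. These letters are common: 72.3% of all 32851 RefSeq promoter windows held them, and the narrower CAGCTG was in 16.3%. A match is a description of the letters and not of binding.

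**Figure D2:**
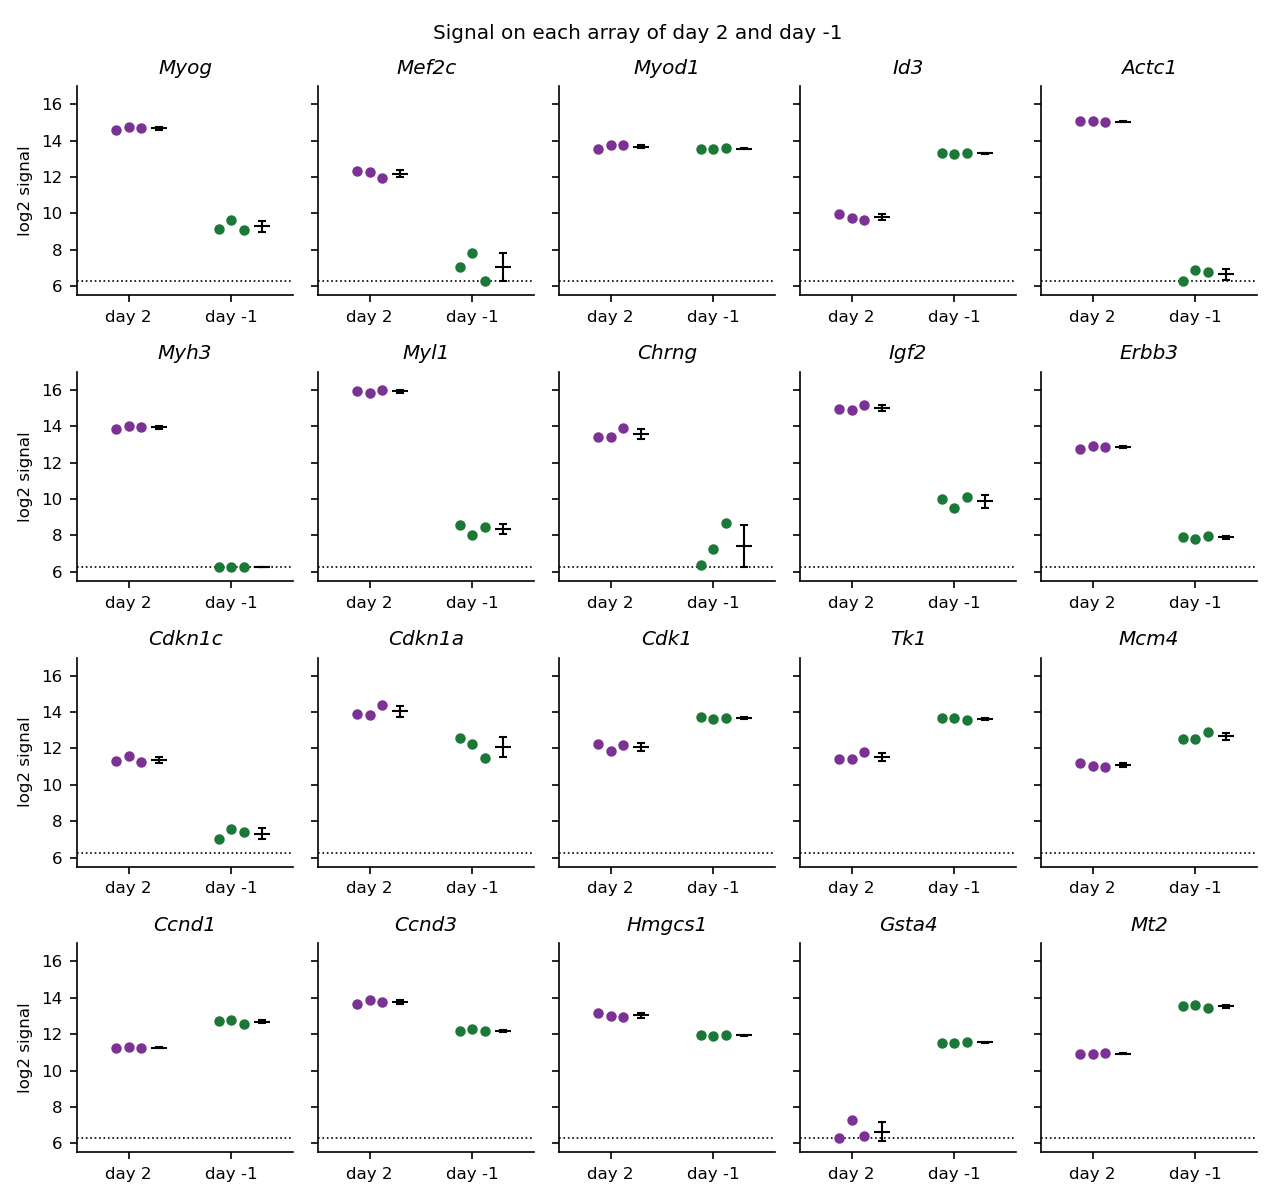
Log2 signal of 20 genes on each of the 3 arrays of day 2 (purple, left) and the 3 arrays of day -1 (green, right), with the mean ± SD in black beside them and the floor of 6.28 as a dotted line. Of these 20 genes only Myod1 has overlapping groups, and Myh3 is at the floor on all 3 day -1 arrays.

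The sarcomere lists had the highest median changes of the gene lists. Of 16 tested genes of the developmental, slow and cardiac sarcomere 15 rose and none fell, with a median change of 3.69, against a median of -0.02 over all tested genes. Of 14 fast sarcomere genes 13 rose, with a median of 3.88, and Tpm1, an actin-binding tropomyosin, fell by 0.29. The Tpm1 call was lost without day 2 replicate 3 and with scan day as a fixed factor. Cardiac alpha-actin (Actc1, probe set 101028_i_at), the actin of embryonic muscle, had 15.07, 15.06 and 15.01 on day 2, against 6.28, 6.89 and 6.75 on day -1. The fitted change was 8.41 ± 0.13 (limma adjusted p = 8e-22), with all day -1 arrays at or near the floor, so that its size depends on the floor. A second Actc1 probe set, of the type Affymetrix marks as shared by a gene family, rose by 3.02 from a high day -1 signal. Skeletal alpha-actin (Acta1) had 15.90, 15.90 and 15.96 on day 2, against 9.83, 10.20 and 9.95 on day -1 (5.93 ± 0.13).

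Embryonic myosin heavy chain (Myh3) was at the floor on all day -1 arrays and at 13.87, 13.99 and 13.96 on day 2, at least 202-fold higher (at least 7.66, limma adjusted p = 8.47e-24). The embryonic and atrial light chain Myl4 had 15.35, 15.41 and 15.45 on day 2, against 7.60, 7.31 and 7.53 on day -1. The fast light chain Myl1 had 15.93, 15.85 and 16.02 on day 2, against 8.58, 8.05 and 8.47 on day -1. In both light chains the arrays of a day differed by under 1 while the days differed by over 7. Of the troponins, slow Tnnt1 rose by 7.30, slow and cardiac Tnnc1 by 6.96 and fast Tnnt3 by at least 6.99. Slow and fast isoforms were thus both higher by day 2. The adult fast heavy chain Myh1 rose by at least 6.45 and the regulatory light chain Myl2 by at least 3.32, with 9.42, 9.76 and 9.61 on day 2. In the same genes the day -1 values were at or within 3 of the floor, and the days did not overlap.

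The sarcomere scaffold followed, with 13 of 15 tested genes higher and a median of 2.63. Csrp3, which the list also holds, the M-band proteins Myom2 (4.31) and Myom1 (at least 3.82), the Z-disc protein Ldb3 (4.13) and the actin-binding Xirp1 (4.07) led it. Desmin (Des), the muscle intermediate filament, rose by 0.53 ± 0.16 (limma adjusted p = 0.0178), with 11.98, 11.75 and 11.87 on day 2, against 11.17, 11.68 and 11.17 on day -1. The Des call was lost without day 2 replicate 1 (0.47, limma adjusted p = 0.0748), without day -1 replicate 1 (0.44, limma adjusted p = 0.0901), without day -1 replicate 3 (0.44, limma adjusted p = 0.0822) and with scan day as a fixed factor. With scan day as a fixed factor, 15 of 16 developmental, 12 of 14 fast and 10 of 15 scaffold genes were called higher.

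Among the contractile, scaffold, coupling and junction genes that rose, 57 in all, 45 had promoter windows in the RefSeq table. The letters CAGCTG were in 44.1% of their 59 windows, against 16.3% of all windows, and the CArG box, the site of serum response factor, was in 11.9%, against 1.63%. The genes were chosen by their rise, so these shares are a description only. The window of Actc1 is shown as that of a sarcomere gene with a large rise, on the minus strand at chr2:114052826-114053125 (GRCm38.p6, RefSeq), with its CArG box and its CANNTG letters in capitals.
Actc1: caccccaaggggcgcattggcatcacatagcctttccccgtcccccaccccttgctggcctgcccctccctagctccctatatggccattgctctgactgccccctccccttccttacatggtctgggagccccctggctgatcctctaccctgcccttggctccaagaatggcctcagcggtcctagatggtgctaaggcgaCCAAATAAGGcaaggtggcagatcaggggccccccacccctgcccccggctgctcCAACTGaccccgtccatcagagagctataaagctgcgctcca

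Genes of the excitable membrane rose with the sarcomere. In excitation-contraction coupling, in which a voltage sensor opens the calcium release channel, 8 of 14 tested genes rose and none fell. The release channel Ryr1 had 12.32, 12.21 and 12.31 on day 2, against 6.28, 6.67 and 6.88 on day -1 (5.67 ± 0.20, limma adjusted p = 2.08e-15). The voltage sensor Cacna1s had 12.04, 12.16 and 12.13 on day 2, with 2 of 3 day -1 arrays at the floor, and rose by at least 5.53. The calcium pump Atp2a1 rose by at least 6.99 in one probe set and by 6.31 in the other. The chloride channel Clcn1 and the pump regulator Sln had changes of 0.38 and 0.26 and were not called.

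Of 16 neuromuscular junction genes 11 rose and none fell. The acetylcholine receptor subunits did not start from a common level. The gamma subunit of the fetal receptor (Chrng) had 13.41, 13.41 and 13.88 on day 2, against 6.37, 7.24 and 8.68 on day -1 (6.14 ± 0.34, limma adjusted p = 6.62e-12), a change of 4.73 within the first chip lot and 7.08 within the other. The delta subunit (Chrnd) had 11.51, 11.53 and 11.56 on day 2, against 8.5, 8.44 and 8.65 on day -1. The alpha subunit (Chrna1) was present in dividing cells and rose to 14.49, 14.54 and 14.58 on day 2, against 12.74, 12.57 and 12.76 on day -1 (1.84 ± 0.10). The adult subunit Chrne changed by 0.10 and was not called, nor was acetylcholinesterase (Ache, 0.61). The receptor kinase Musk and the clustering protein Rapsn rose by 1.14 and 0.92.

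Of 11 genes of the dystrophin-glycoprotein complex, which links the cytoskeleton to the basement membrane, 10 rose, with a median of 1.67, and 6 were called with scan day as a fixed factor. The muscle caveolin Cav3 had 13.16, 13.47 and 13.01 on day 2 and was at the floor on day -1 in one probe set (at least 6.94), and the other Cav3 probe set rose by 5.30. The sarcoglycan Sgca rose by 3.71, the syntrophin Sntb1 by 2.40 and the dystrobrevin Dtna by 2.05. Cav1, the caveolin of most other cells, had 12.28, 12.05 and 11.93 on day 2, against 11.96, 12.36 and 12.71 on day -1, and these overlapped (interval -0.72 to 0.20).

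Of 24 genes of glycolysis, glycogen use and creatine, 8 rose and 2 fell, with a median of 0.11. Intervals inside 1.5-fold were those of 7 genes, near the 27.7% of all tested genes. A fixed factor for scan day gave 8 called higher and 0 lower. Myoglobin (Mb) had 13.01, 12.95 and 12.85 on day 2, with 2 of 3 day -1 arrays at the floor (at least 6.32, limma adjusted p = 1.81e-15). The muscle phosphorylase Pygm (at least 5.52), the muscle phosphoglycerate mutase Pgam2 (at least 4.86), muscle creatine kinase Ckm (at least 4.11) and muscle phosphofructokinase Pfkm (2.79) also rose, as did the brain-type creatine kinase Ckb (2.91). A second Ckm probe set changed by 0.60 and was not called. The liver-type phosphofructokinase Pfkl fell by 0.67 and Pgk1 by 0.43, and Ldha, Tpi1 and Aldoa had changes of -0.15, -0.03 and 0.10 that were not called, although a second Aldoa probe set rose by 0.38. In the respiratory chain and citrate cycle, 21 of 34 genes had intervals inside 1.5-fold. There 4 rose and 4 fell, near the shares of all tested genes (12.8% and 15.4%). The rises were 1 without day -1 replicate 1 and 2 without day -1 replicate 2 or any 1 array of day 2, the falls were 2 without day 2 replicate 2, and with scan day as a fixed factor the counts were 1 and 0. The largest change was that of the muscle subunit of cytochrome oxidase, Cox6a2, with 12.71, 12.84 and 13.22 on day 2, against 7.07, 8.66 and 6.64 on day -1 (5.47 ± 0.33), while its widely expressed counterpart Cox6a1 changed by 0.02.

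Secreted factors and their receptors showed a few large rises. Of 20 growth factors and secreted regulators 8 rose and 1 fell (4 and 1 with scan day as a fixed factor). Igf2, which promotes myoblast differentiation in an autocrine way, had 14.95, 14.90 and 15.18 on day 2, against 9.99, 9.49 and 10.12 on day -1 (5.14 ± 0.21, 35.4-fold, limma adjusted p = 4.5e-14). Follistatin (Fst), which binds and blocks myostatin and activin, had 13.70, 13.49 and 13.68 on day 2, against 8.76, 8.41 and 8.20 on day -1 (5.16 ± 0.17). Neither gene had overlapping arrays. Tgfb3 rose by 1.93, and Bdnf, a neurotrophin made by myoblasts, fell by 1.45.

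Of 19 growth factor receptors 5 rose and 3 fell (3 and 0 with scan day as a fixed factor). The share of receptors that fell was near the 15.4% of all tested genes. The neuregulin receptor Erbb3 had 12.77, 12.92 and 12.89 on day 2, against 7.91, 7.82 and 7.98 on day -1 (4.96 ± 0.12, limma adjusted p = 3.17e-18). Igf2r, which takes up and clears Igf2, rose by 1.49. The fibroblast growth factor receptors moved in opposite directions, with Fgfr4 at least 1.47 higher and Fgfr1 changed by -0.52 ± 0.14. The Fgfr1 call was lost without day 2 replicate 1 (-0.43, limma adjusted p = 0.0508) and with scan day as a fixed factor, and the dim Fgfr4 signal was at 0.02 with the higher floor. The platelet-derived growth factor receptor Pdgfra fell to 8.72, 8.65 and 8.36 on day 2, against 10.42, 10.25 and 10.25 on day -1, although a second Pdgfra probe set changed by 0.29 and was not called. Of 12 Igf binding proteins and imprinted genes 2 rose and 2 fell, near the shares of all tested genes (12.8% and 15.4%). Igfbp2 and Igfbp6 fell by 1.19 and 0.82, and Igfbp3 rose by at least 2.54. The other rise, of Gnas by 0.29, lost its call without day 2 replicate 3 (0.23, limma adjusted p = 0.109) and without day -1 replicate 3 (0.23, limma adjusted p = 0.0941), and a second Gnas probe set changed by -0.20 and was not called. A fixed factor for scan day gave counts of 1 and 1.

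The genes of cell division fell, and none of the 4 lists below held a called rise. Of 16 tested replication licensing genes 12 fell (median -1.17), of 27 genes of the replication fork and polymerases 23 fell (median -1.18), of 20 mitotic kinases and anaphase regulators 17 fell (median -1.13) and of 20 genes of the kinetochore, spindle and cytokinesis 17 fell (median -1.12). Within the 2 chip lots the 4 medians lay between -1.29 and -1.08. With scan day as a fixed factor, 6, 7, 9 and 7 genes of these lists were called lower, Mcm5 and Cdk1 not among them, and 1 fork gene was called higher.

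Mcm4, a subunit of the replicative helicase, had 11.18, 11.06 and 10.96 on day 2, against 12.52, 12.54 and 12.91 on day -1 (-1.59 ± 0.15, limma adjusted p = 3.23e-08). Mcm5, another subunit, fell by 0.94 in its brightest probe set, while its second probe set changed by 0.89 and was not called. The licensing factor Cdt1 fell by 1.77 and its inhibitor geminin (Gmnn) by 1.6. The clamp Pcna had 12.58, 12.68 and 12.54 on day 2, against 13.25, 13.36 and 13.43 on day -1. Among 16 genes of nucleotide synthesis 9 fell, led by thymidine kinase (Tk1) with 11.41, 11.41 and 11.78 on day 2, against 13.65, 13.67 and 13.56 on day -1 (-2.09 ± 0.14, 4.27-fold). The ribonucleotide reductase subunits Rrm1 and Rrm2 fell by 1.22 and 1.27. In the fit with a fixed scan day factor 3 of the 16 nucleotide genes were called lower, and Rrm1 changed by -0.62 (limma adjusted p = 0.47).

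The mitotic kinase Cdk1 had 12.24, 11.85 and 12.17 on day 2, against 13.73, 13.62 and 13.68 on day -1 (-1.59 ± 0.22, limma adjusted p = 9.57e-06), so that the arrays were apart and the gene was still bright. Bub1 fell by 1.74, Ttk by 1.52, the securin Pttg1 by 1.49 and survivin (Birc5) by 1.90. The largest fall in these lists was that of the spindle motor Kifc1, with 7.52, 7.19 and 7.91 on day 2, against 11.29, 10.87 and 10.90 on day -1 (-3.48 ± 0.31, 11.1-fold). The Kifc1 probe set is of the type marked as shared by a gene family. Mki67, whose protein marks cycling cells, fell by 1.21 in its brightest probe set, and a second Mki67 probe set changed by 0.47 and was not called. Among 21 genes of chromosome structure 11 fell (6 with scan day as a fixed factor), led by Hmga2 (-1.63) and topoisomerase Top2a (-1.43), and Cbx5 and H1f2 rose by 0.42 and 0.82.

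The G1 regulators and the inhibitors of the cycle moved one by one. Cyclin D1 (Ccnd1) had 11.22, 11.29 and 11.24 on day 2, against 12.71, 12.77 and 12.58 on day -1 (-1.44 ± 0.20, limma adjusted p = 1.29e-05). Cyclin D3 (Ccnd3), the D cyclin kept in muscle, had 13.65, 13.89 and 13.75 on day 2, against 12.15, 12.26 and 12.18 on day -1 (1.57 ± 0.09, limma adjusted p = 3.1e-11). These D cyclins thus changed in opposite directions. Of the other genes of this list Ccna2, Cks1b and Cdk4 fell by 0.79, 0.95 and 0.56, and Cdk2 and E2f1 had changes of 0.41 and -0.27 and were not called. The 2 Mybl2 probe sets disagreed, with -0.01 in the brighter, not called, and -2.14 in the other, which was called.

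Of 20 cell cycle inhibitors and pocket proteins 7 rose and 5 fell (4 and 1 with scan day as a fixed factor). The kinase inhibitor p57 (Cdkn1c) had 11.30, 11.56 and 11.27 on day 2, against 7.0, 7.59 and 7.38 on day -1 (4.05 ± 0.25, 16.5-fold, limma adjusted p = 3.97e-11). Its relative p21 (Cdkn1a) was already high and had 13.88, 13.85 and 14.37 on day 2, against 12.56, 12.22 and 11.50 on day -1 (1.94 ± 0.22). The stress-induced Gadd45a rose by 2.36 and the retinoblastoma gene Rb1 by 1.61. Rbl1, the pocket protein of dividing cells, fell by 1.35, Cdkn2c by 0.70, and Rbl2 changed by -0.05 and was not called. Gas1 and Gas2, named for their rise in growth arrest, fell by 1.47 and 1.69, having risen by 2.13 and 1.83 between day -2 and day -1 (775 of 8402 probe sets were called in that step, 9.22%).

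The promoter windows of Cdk1 and Mcm5 are shown as a mitotic and a replication gene. Capitals mark the letters CCAAT (bound by NF-Y), TTTNNCGC (an E2F-type site) and, in Cdk1 alone of the pair, TTTGAA (the cell cycle genes homology region), on either strand. The Cdk1 window is chr10:69352863-69353162 on the minus strand and the Mcm5 window chr8:75109259-75109558 on the plus strand (GRCm38.p6, RefSeq).
Cdk1: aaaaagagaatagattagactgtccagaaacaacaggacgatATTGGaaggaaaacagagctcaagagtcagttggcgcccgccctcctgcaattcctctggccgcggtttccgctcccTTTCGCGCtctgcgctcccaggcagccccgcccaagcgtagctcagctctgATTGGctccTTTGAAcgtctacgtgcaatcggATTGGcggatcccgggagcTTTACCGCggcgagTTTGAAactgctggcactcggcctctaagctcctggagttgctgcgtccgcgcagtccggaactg
Mcm5: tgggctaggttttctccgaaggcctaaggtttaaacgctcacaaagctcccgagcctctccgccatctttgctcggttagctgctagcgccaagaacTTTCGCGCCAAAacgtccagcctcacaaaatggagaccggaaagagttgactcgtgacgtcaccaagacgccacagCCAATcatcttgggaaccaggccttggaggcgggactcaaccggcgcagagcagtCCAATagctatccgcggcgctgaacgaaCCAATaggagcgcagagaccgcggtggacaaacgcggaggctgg
Of the 69 replication and mitosis genes that fell 58 had windows, 68 in number. CCAAT was in 64.7% of them, TTTGAA in 41.2% and TTTNNCGC in 27.9%, against 37.4%, 17.9% and 5.17% of all 32851 windows. For the contractile and membrane genes that rose the 3 shares were 25.4%, 6.78% and 3.39%. Both sets were chosen by their change, and no test was made of these shares.

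**Figure D3:**
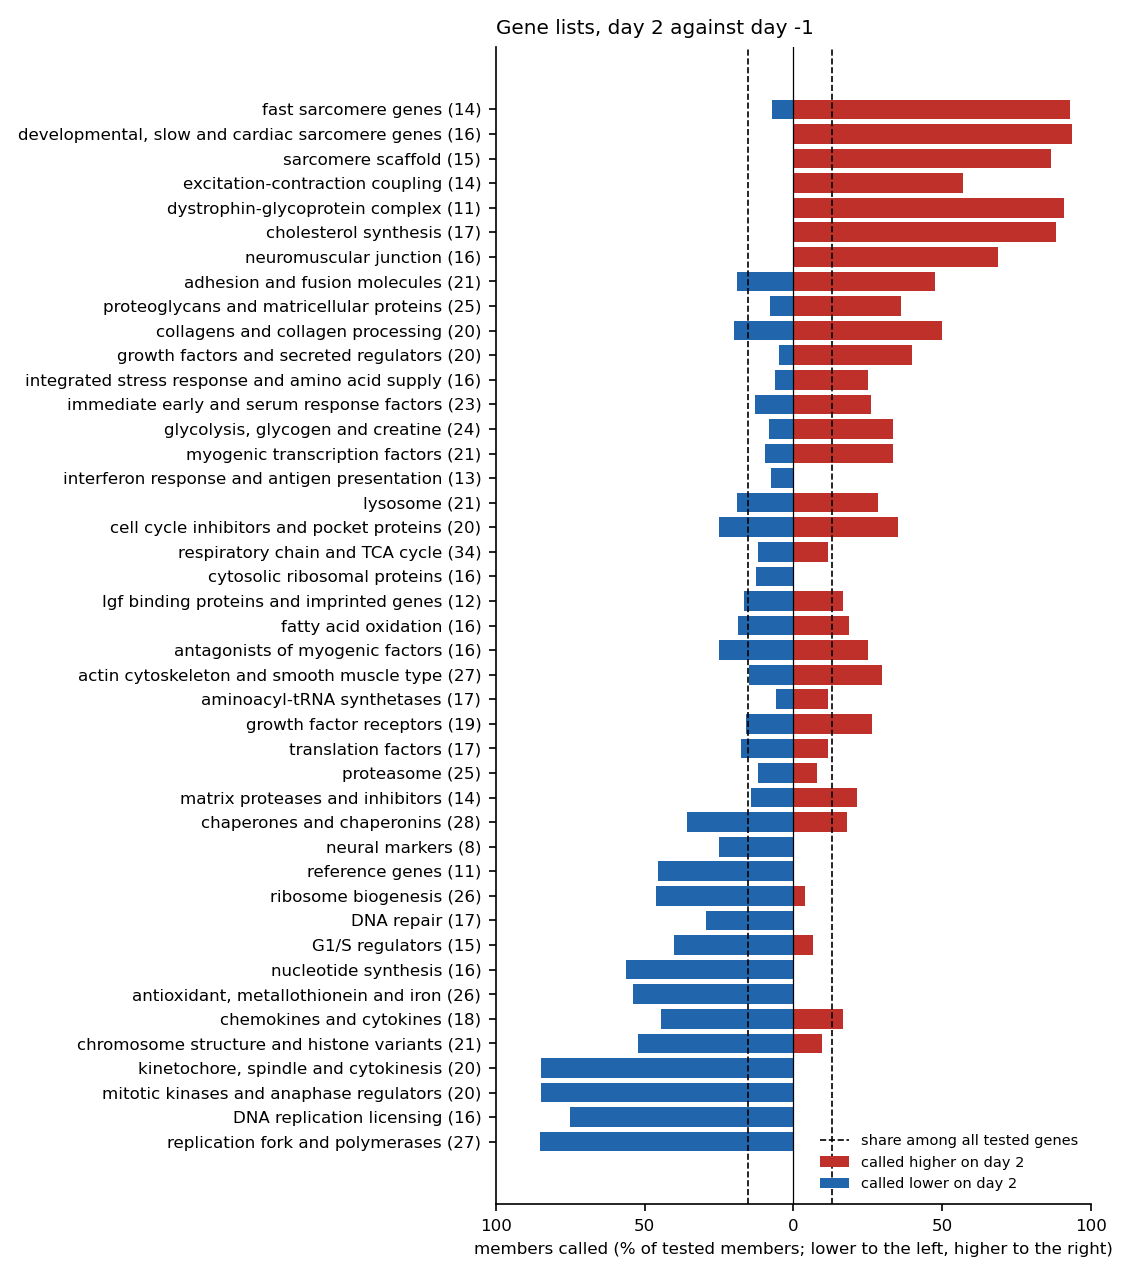
Share of the tested members of each gene list with at least 8 tested members (number in brackets) that was called lower on day 2 (blue, to the left) or higher (red, to the right), in per cent, ordered by median change. Dashed lines give the shares over all 6237 tested genes, 15.4% lower and 12.8% higher.

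The 2 largest fitted falls were read by probe sets that the annotation gives to several genes, mostly of the Prl2c family, the proliferins, which are secreted prolactin relatives of growing cells. These were picked out after their values were seen, and no single family member can be named. Probe set 93929_s_at had 8.57, 8.30 and 7.96 on day 2, against 14.40, 14.57 and 14.74 on day -1 (-6.29 ± 0.31, 78.4-fold, limma adjusted p = 7.7e-13). Probe set 93883_at had 10.34, 10.19 and 9.79 on day 2, against 15.31, 15.35 and 15.11 on day -1 (-5.16 ± 0.26). Another such probe set, 94838_r_at, fell by 3.84. On all 3 the days were far apart, and the low levels lasted, with means of 6.91, 9.25 and 6.88 on day 10.

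Of 26 antioxidant, metallothionein and iron genes 14 fell and none rose, with a median of -0.605. With scan day as a fixed factor, 12 of the 26 were called lower and 1 higher, and 1 was also called higher without day 2 replicate 1 or without day -1 replicate 1. The glutathione transferase Gsta4, which conjugates lipid aldehydes, had 6.28, 7.28 and 6.39 on day 2, against 11.54, 11.53 and 11.56 on day -1 (-4.90 ± 0.43, 29.8-fold, limma adjusted p = 1.24e-08). The quinone reductase Nqo1 had 8.15, 7.48 and 7.38 on day 2, against 9.69, 10.32 and 10.58 on day -1 (-2.53 ± 0.36). The modifier subunit of glutathione synthesis, Gclm, had 9.15, 8.83 and 9.11 on day 2, against 11.23, 11.35 and 11.40 on day -1 (-2.29 ± 0.20). Sulfiredoxin (Srxn1) fell by 2.89 in the probe set named here, while a second one changed by 0.43 and was not called. Smaller falls were those of Gstm1 (-1.65), Gsr (-1.25), Hmox1 (-1.07), Gclc (-0.89) and Txnrd1 (-0.80), and a second Gstm1 probe set changed by 0.08 and was not called. Catalase (Cat), Gpx1 and Sod2 were not called, with changes of 0.18, -0.17 and 0.28.

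The metallothioneins, metal-binding proteins, fell on day 2 and were high again later. Mt2 had 10.92, 10.91 and 10.98 on day 2, against 13.55, 13.63 and 13.46 on day -1 (-2.61 ± 0.11, limma adjusted p = 3.57e-14), and Mt1 had 10.91, 11.04 and 10.98 on day 2, against 12.85, 12.91 and 12.71 on day -1. On day 4 the Mt2 mean was 13.14 and the Mt1 mean 12.51. The change between day 4 and day -2 was -0.49 for Mt2, and the 2 changes differed (difference tested in limma, adjusted p = 4.9e-09).

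The promoter window of Gclm is shown because its product is the modifier subunit of glutathione synthesis and because the antioxidant-element letters TGACNNNGC lie in it (capitals, on either strand). It is chr3:122245307-122245606 on the plus strand (GRCm38.p6, RefSeq).
Gclm: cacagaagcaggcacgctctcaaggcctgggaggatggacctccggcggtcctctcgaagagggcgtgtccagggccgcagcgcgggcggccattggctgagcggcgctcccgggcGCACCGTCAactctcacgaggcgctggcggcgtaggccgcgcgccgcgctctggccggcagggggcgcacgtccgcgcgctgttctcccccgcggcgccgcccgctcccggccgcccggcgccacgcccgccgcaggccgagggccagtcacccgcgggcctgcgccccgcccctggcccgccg
Of the 14 antioxidant genes that fell 10 had windows, 13 in number. These letters were in 4 of the 13 (30.8%), against 12.4% of all windows. The set was chosen by its fall, and no test was made of these shares.

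Of 18 chemokines and cytokines 8 fell and 3 rose (median -0.66). The neutrophil chemokine Cxcl5 had 6.75, 7.55 and 7.21 on day 2, against 10.13, 9.91 and 10.49 on day -1 (-3.01 ± 0.52, limma adjusted p = 0.000131), and Cxcl1 fell by 2.68. The receptor antagonist Il1rn fell by 2.22 and the monocyte chemokines Ccl7 and Ccl2 by 2.18 and 1.28. Il6 was at the floor on all day -1 arrays and at 7.99, 8.32 and 7.28 on day 2, a dim signal whose call was lost without day 2 replicate 2 (1.36, limma adjusted p = 0.0501), at the higher floor and with scan day as a fixed factor. With that factor 3 of the 18 were called lower and none higher, and without day 2 replicate 2 the rises were 1. The keratin Krt19, an epithelial-type filament, was at the floor on day 2, against 9.32, 8.97 and 9.22 on day -1, and stayed at the floor on days 4 to 10. The water channel Aqp1, the cytochrome Cyp1b1 and the carbonic anhydrase Car2 fell by 2.78, 2.65 and 2.50, and Car2 had risen by 3.11 between day -2 and day -1. A second Aqp1 probe set changed by -0.10 and was not called.

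Cholesterol synthesis genes were higher on day 2. Of 17 genes, Fasn and Scd2 of fatty acid synthesis included, 15 rose and none fell, with a median of 1.10 (1.14 and 1.17 within the 2 chip lots). With scan day as a fixed factor 7 were called higher, Hmgcs1, Dhcr7, Lss and Sc5d not among them. The enzyme Hmgcs1, which makes the precursor of mevalonate, had 13.19, 12.99 and 12.95 on day 2, against 11.98, 11.91 and 11.95 on day -1 (1.10 ± 0.13, limma adjusted p = 1.48e-06). The demethylase Cyp51 had 11.06, 11.42 and 10.96 on day 2, against 9.72, 9.72 and 9.60 on day -1 (1.46 ± 0.16). Fdps, Idi1, Lss, Dhcr7 and Nsdhl rose by 1.15, 1.15, 1.44, 1.42 and 1.55. Another Fdps probe set rose by 1.16, and a further Fdps probe set changed by -0.06 and was not called. Hmgcs1, Fdps and Idi1 were also higher on day -1 than on day -2, by 1.08, 1.11 and 1.25. The list median stood at 0.54 above day -1 on day 4 and 0.43 on day 10.

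The Hmgcs1 window, chr13:119690101-119690400 on the plus strand (GRCm38.p6, RefSeq), is shown with its CCAAT letters, on either strand, and with the sterol-element letters TCACNCCAC in capitals.
Hmgcs1: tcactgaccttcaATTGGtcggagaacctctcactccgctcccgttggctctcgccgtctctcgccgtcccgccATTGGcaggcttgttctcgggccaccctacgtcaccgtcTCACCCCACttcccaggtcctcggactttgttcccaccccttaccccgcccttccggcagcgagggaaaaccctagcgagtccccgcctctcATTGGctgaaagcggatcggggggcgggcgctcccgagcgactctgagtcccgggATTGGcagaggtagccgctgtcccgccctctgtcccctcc
The 10 of 15 rising genes of this list with a window had 12 windows. CCAAT was in 83.3% of them, against 37.4% of all. TCACNCCAC was in 1 of them, the Hmgcs1 window shown (8.33%, against 1.24% of all). The set was chosen by its rise, and no test was made of these shares.

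In the matrix and adhesion lists below, rises were more frequent than over all tested genes, of which 12.8% rose and 15.4% fell. Falls were near or below the share of all tested genes. Of 20 collagens and collagen-processing genes 10 rose and 4 fell. The rises were 6 without day 2 replicate 1, the falls were 2 without day 2 replicate 2 or without day -1 replicate 1, and with scan day as a fixed factor the counts were 5 and 0. Col1a1, a chain of type I collagen, had 12.68, 12.81 and 12.73 on day 2, against 11.17, 10.84 and 11.03 on day -1 (1.72 ± 0.17, limma adjusted p = 1.06e-07), while Col1a2, its partner chain, fell by 0.52 in one probe set and was not called in another (0.25). Col1a1 had been lower on day -1 than on day -2, by 1.37. Of 25 proteoglycans and matricellular proteins 9 rose and 2 fell (1 without day -1 replicate 3, and 7 and 1 with scan day as a fixed factor), led by periostin (Postn) with 11.03, 11.02 and 10.79 on day 2, against 7.41, 8.06 and 7.30 on day -1 (3.36 ± 0.26). Of 21 adhesion and fusion molecules 10 rose and 4 fell (4 and 1 with scan day as a fixed factor). The laminin-binding integrin Itga7 rose by 1.5 and the cadherin Cdh11 by 1.49, and Vcam1 fell to 9.63, 9.89 and 9.65 on day 2, against 11.67, 11.67 and 11.74 on day -1 (-1.97 ± 0.14).

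Single immediate early genes, which report growth signalling, moved in both directions. Over all tested genes 12.8% rose and 15.4% fell, and falls among immediate early genes were no more frequent. Of 23 tested 6 rose and 3 fell (3 and 0 with scan day as a fixed factor). Ccn2 rose to 13.49, 13.51 and 13.63 on day 2, against 11.62, 11.55 and 11.58 on day -1 (1.96 ± 0.09), and had been lower on day -1 than on day -2 by 1.99, so that its day 2 level was close to that of day -2 (13.58 on average). Egr2 rose by 1.41, and Fosl1 and Jun fell by 1.56 and 0.82. Fos had 9.40, 8.98 and 9.01 on day 2, against 10.83, 9.04 and 8.92 on day -1, where replicate 1 was high and the groups overlapped (interval -1.21 to 0.28). Myc had 9.5, 9.53 and 9.18 on day 2, against 9.87, 9.66 and 9.99 on day -1, and its change of -0.44 was not called (interval -0.86 to -0.01).

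Much of the basic machinery was shared between day 2 and day -1. By genes, 1726 of 6237 (27.7%) had the 95% interval of the change inside 1.5-fold, 13 of 16 cytosolic ribosomal proteins, 16 of 25 proteasome subunits, 21 of 34 respiratory chain and citrate cycle genes and 11 of 17 aminoacyl-tRNA synthetases among them. The brightest such genes included Rpl41, the lectin Lgals1, the elongation factor Eef1a1, Tpt1, Rplp0, the calcium-binding S100a6, the tubulin Tuba1c and the proteoglycan Bgn, of which a second probe set rose by 0.58. Eef1a1 had 16.21, 16.04 and 16.35 on day 2, against 16.15, 16.09 and 15.85 on day -1 (interval -0.04 to 0.37). Rplp0 had 15.82, 15.70 and 15.92 on day 2, against 16.10, 16.01 and 15.78 on day -1 (interval -0.37 to 0.07). Both pairs of groups overlapped. The same lists held called changes as well, some of them lost when 1 array was left out. Of the ribosomal proteins 2 fell, of the proteasome subunits 2 rose and 3 fell, and of the synthetases 2 rose and 1 fell. Each of these shares was below that of all tested genes, of which 12.8% rose and 15.4% fell. Of the 2169 probe sets inside 1.5-fold, 101 were also called.

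Of 26 ribosome biogenesis genes 12 fell and 1 rose (median -0.37), led by the nucleolar proteins Nop56 (-1.08), Gar1 (-0.91) and Fbl (-0.78). A fixed factor for scan day gave 3 called lower and none higher, with Nop56 at -0.59 (limma adjusted p = 0.169) and Gar1 at -0.59 (limma adjusted p = 0.0907), and the single rise was lost when any of 4 arrays was left out (any of day 2, or day -1 replicate 1). Of 28 chaperones and chaperonins 10 fell and 5 rose, and with scan day as a fixed factor 2 were called lower and 4 higher. Over all tested genes 15.4% fell and 12.8% rose, so the share of chaperones that rose was near that of all. The chaperones that rose most were the muscle-type small heat shock proteins Hspb2 (1.67), Cryab (1.56) and Hspb8 (0.83). Cct7 and Cct3 of the cytosolic chaperonin fell by 0.73 and 0.51. Of 11 genes in common use as references 5 fell (3 without day 2 replicate 1 and 1 with scan day as a fixed factor), the polymerase subunit Polr2a by 1.37 in one probe set with a second at 0.41 that was not called. No tested probe set named Gapdh, Eno1 or Hmga1 alone. The Actb probe set 101578_f_at gave 10.06, 10.01 and 11.50 on day 2, against 12.16, 12.16 and 7.46 on day -1, a spread of several log2 units within a day, and a second Actb probe set rose by 1.36.

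The markers of myotubes and of proliferating cells went with the labels. The summed signal of 8 myotube markers was 221631 to 239057 on day 2, against 13487 to 14855 on day -1, and that of 6 proliferation markers was 21495 to 21689 on day 2, against 43332 to 47184 on day -1. All 6 proliferation markers were above the filter on day 2 as well. Of the markers of other cell types the macrophage sum was 368 to 601 on day 2, against 533 to 757 on day -1, the endothelial sum 369 to 525 on day 2, against 401 to 1011 on day -1, and the bone and cartilage sum, over 2 measured genes, 76 to 358 on day 2, against 150 to 319 on day -1. Ptprc, Lyz2 and Cdh5 were at the floor on all 6 arrays. Csf1r (7.42 on day 2, 8.21 on day -1), Pecam1 (7.4 and 8.19) and Kdr (7.64 and 7.33) were above it on all 6. On day -1, 1 macrophage and 1 endothelial marker were above the filter, and on day 2 none. The adipocyte sum was 1582 to 1929 on day 2, against 2886 to 2960 on day -1. Of 4 tested adipocyte genes Cebpa fell by 0.76, and Pparg and Lpl by 1.46 and 1.33, with calls that were lost under 5 and 9 of the 19 alternative settings. Without day 2 replicate 3 or without day -1 replicate 1 only 1 of these 3 falls was called. The neural sum was 12958 to 16938 on day 2, against 11777 to 14011 on day -1, and rested on the probe set named for Tubb3. That probe set had means of 13.80 on day 2 and 13.59 on day -1. It is of the type marked as shared by a gene family, so the signal may not be that of Tubb3 alone. The part of other cell types in the changes above was not tested.

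A contrast without shared arrays, day 4 minus day -2, gave a second view of the step between proliferation and differentiation, with 3735 of 8402 probe sets called (44.5%). Of the 2182 probe sets called between day 2 and day -1, 1919 (87.9%) had the same sign in it and 1584 were called the same way, 108 the opposite way. Among uncalled probe sets 62.9% had the same sign. The difference between the 2 changes was called for 1551 of 8402 probe sets (18.5%). Of the 2182 it was called for 699, in 470 of which the change was smaller in size between day 2 and day -1 and in 229 larger.

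**Figure D4:**
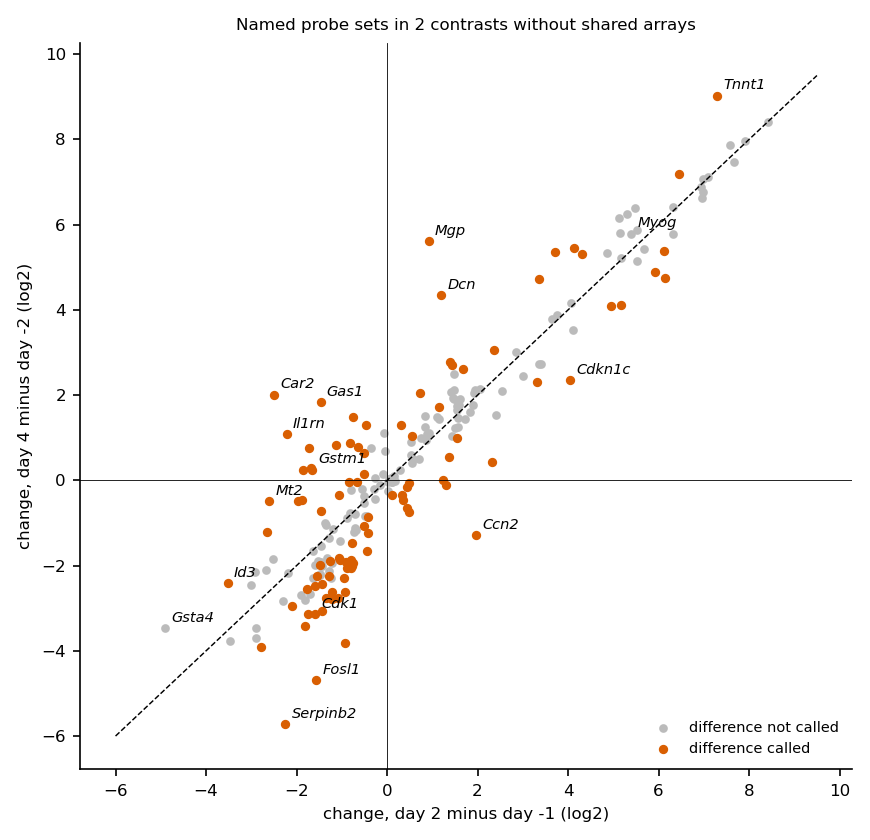
Change between day 4 and day -2 (log2, vertical axis) against the change between day 2 and day -1 (log2, horizontal axis) for the probe sets named here, 1 point each, with the line of equality dashed and orange where the difference between the 2 changes was called. Most contractile genes lie near the line, Cdk1 lies below it, and Mt2, Gas1, Car2, Mgp and Ccn2 lie far from it.

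The difference was called for 14 of 20 mitotic kinases, 11 of 20 kinetochore and spindle genes and 6 of 16 licensing genes. It was called for 7 of 27 fork genes, 3 of 16 developmental sarcomere genes and 4 of 14 fast sarcomere genes. Over all tested probe sets it was called for 18.5%, and the fork and sarcomere shares were nearer to that. Actc1 changed by 8.41 in both contrasts. Cdk1 changed by -1.59 between day 2 and day -1 and by -3.14 between day 4 and day -2 (difference in limma, adjusted p = 0.00116). The median of the mitotic kinases stood 1.13 below day -1 on day 2 and 2.18 below it on day 4, while that of the fast sarcomere genes stood 3.88 above day -1 on day 2, 4.65 on day 4 and 4.98 on day 10. Cdkn1c was highest on day 2, with a mean of 11.37, against 9.60 on day 4 (day 4 minus day 2 -1.77, limma adjusted p = 3.99e-05). Matrix genes differed in both directions. Mgp, an inhibitor of calcification, was 0.92 higher on day 2 than on day -1 and 5.62 higher on day 4 than on day -2, and decorin (Dcn) 1.2 and 4.34 higher, of which the smaller Dcn value lost its call without day -1 replicate 1 (1.04, limma adjusted p = 0.0683). The matrix glycoprotein Tnc had changes of 1.23 and 0.02 in the same order and the collagen Col18a1 of 1.36 and 0.55, and for Col1a1, with 1.72 and 1.44, the difference was not called. The urokinase receptor gene Plaur and the inhibitor Serpinb2 fell further, with changes of -0.94 and -2.25 between day 2 and day -1 and of -3.82 and -5.72 between day 4 and day -2.

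**Figure D5:**
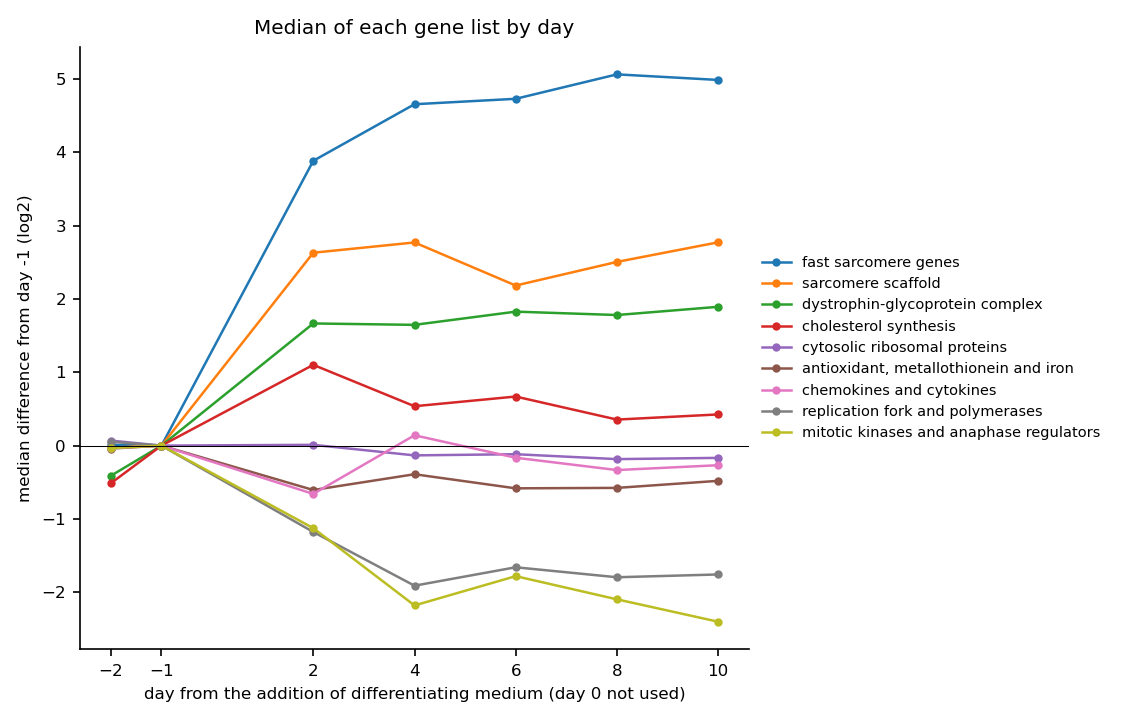
Median difference of 9 gene lists from day -1 (log2, vertical axis) on days -2, -1, 2, 4, 6, 8 and 10 (horizontal axis, day 0 not used), 1 line a list. The fast sarcomere list is at 3.88 on day 2 and 4.98 on day 10, the mitotic kinase list at -1.13 on day 2 and -2.40 on day 10, and the cholesterol synthesis list has its highest median, 1.10, on day 2.

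Some probe sets lay at the floor on one day only, which bounds a signal and does not show that a gene was off. Of the tested probe sets naming 1 gene, 22 were at the floor on all 3 day -1 arrays and above the filter of 280.5 signal units on all 3 day 2 arrays, and 3 did the reverse. The 22 included Myh3, Atp2a1, Cav3, Smyd1, Pygm, Csrp3, Pgam2, Ckm, Myl2 and the deaminase Apobec2, which had 10.24, 10.11 and 9.43 on day 2, although a second Apobec2 probe set changed by 0.49 and was not called. The chaperone gene Dnajb5 had 9.44, 9.80 and 9.64 on day 2, and the cathepsin gene Ctsw had 8.75, 8.15 and 8.85, with a mean of 6.70 on day 4. The 3 in the other direction were those of Cxcl1, Krt19 and Krt13, and for Krt13 a second probe set changed by -0.35 and was not called. Several of these genes had another probe set above the floor on the low day, with means of 8.06 for Atp2a1, 7.84 for Cav3 and 8.9 for Mylpf on day -1, and of 7.76 for Cxcl1 on day 2. A second probe set was not called for Ckm (0.60) or Smyd1 (0.55).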

How the data were processed

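The authors deposited 1 table with an intensity for each of 12488 probe sets on 24 arrays, scaled so that the mean without the lowest and highest 2% was about the same on each array; how probes were summarised is not given in the sources used here. Its 66 control probe sets were left out. Groups came from the labelled days. Each probe set was named from the platform annotation with symbols updated through RefSeq (10833 named 1 gene, 396 several and 1193 none).

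Starting from the deposited intensity, values under the 20th percentile (77.5) were raised to it and log2 was taken. Probe sets were tested where the mean of at least 1 of 7 days was above the 40th percentile (280.5). limma 3.58.1 in R 4.3.3 was fitted to 21 arrays of 7 days, day 0 left out, with day as the factor and a trend in the variance prior; p-values were adjusted by the Benjamini-Hochberg method. A gene list used 1 probe set a gene, the brightest. Some probe sets used for named genes were of the type marked as shared by a gene family, those of Ckm, Cryab, Fgfr1, Gstm1 and Kifc1 among them. Tables and figures used Python 3.11.15, pandas 2.3.3, numpy 2.4.6 and matplotlib 3.10.9. The fit was tested on simulated data. The number of arrays, 3 a day, limits the precision.

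The members, the gene lists and the naming rule were chosen with earlier results of these data known. The rule named the 12 largest rises and falls, the 4 called genes of a list that changed most, the 12 brightest genes with intervals inside 1.5-fold, and a fixed set of muscle, cycle and reference genes. Other list members named in the text were chosen after their values were seen. Promoter windows came from RefSeq (GRCm38.p6). Alternatives covered the floor, filter, normalization, samples, chip lot, scan day, replicate block and each array left out.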

Additional observations from a re-analysis of the deposited data

How the results depend on the processing

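The main settings called 2182 probe sets, 1011 higher and 1171 lower, with 2169 inside 1.5-fold. Scan day as a fixed factor moved all 4 counts, to 609 called, 380 higher, 229 lower and 591 inside 1.5-fold; this fit has 6 residual degrees of freedom and reads day -1 through replicate 3 alone. Of the calls, 578 remained in it, and the signs were the same for 98.9%. Scan day as a random block, chosen after seeing the data, called 2124. Without the filter on dim probe sets 3554 were inside 1.5-fold. Leaving out 1 array called 1737 to 1989, with 834 to 969 higher, 903 to 1020 lower and 1761 to 1794 inside 1.5-fold. With the replicate block 2245 were called, 1052 higher and 1193 lower. Same-numbered arrays did not deviate together (correlations of deviations -0.081, -0.011 and -0.111), so the numbers were not taken as pairs. Of 201 named calls, 121 held under all 19 alternatives and 80 were lost under at least 1, 79 of them with scan day as a fixed factor; none reversed. No scan day held both days, and dim signals near the floor limit the size of 75 called changes.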
